A study of Rattus with 6 samples.

Results

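Nitric oxide synthases are the enzymes that make nitric oxide from the amino acid L-arginine. The family has 3 genes: Nos1 (neuronal type, ENSRNOG00000001130), Nos2 (inducible type, ENSRNOG00000011023) and Nos3 (endothelial type, ENSRNOG00000009348). Members were chosen by these Ensembl identifiers. Of the 23092 genes listed in each count file as used here, 2 were members, Nos1 and Nos3, whereas the identifier of Nos2 matched no listed row, so that Nos2 was not analysed here. RNA was sequenced from cardiomyocytes (heart muscle cells) isolated from the ventricles of wild-type male Wistar rats that were adult at 8 weeks. In the hypergravity group (3 libraries) the animals had been spun at 4 g for 14 days, 8 hours per day, and the control group (3 libraries) had no hypergravity. The labels do not say whether each library came from a separate animal, so that p-values measure the spread between these libraries only, which may be technical.

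Nos1 and Nos3 are calcium- and calmodulin-dependent enzymes that are present without induction, whereas Nos2 is made mainly after exposure to inflammatory cytokines. In the heart, Nos3 is best known from the endothelium of vessels and the endocardium and is also found in the caveolae of cardiomyocytes. Nos1 has been placed near the ryanodine receptor of the sarcoplasmic reticulum and is also found in cardiac nerves. The nitric oxide that they form activates soluble guanylyl cyclase, and the cyclic GMP made by that enzyme acts through protein kinase G on contraction, calcium handling and ion channels. The series set out to profile ion channel transcripts and stretch-activated currents, and nitric oxide is among the known modulators of such channels.

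The total on genes ran from 24440690 to 45497422 counts per library, and the 10 most abundant genes took 52.5 to 73.4% of it. Counts were therefore scaled with trimmed mean of M values (TMM) factors, which ran from 0.774 to 1.52, and levels are given as TMM-normalized CPM, that is counts brought to a common library size. Because the identifiers were not paired with gene names, markers of cardiomyocytes, endothelial cells, leukocytes or nerve could not be read out, and neither could the cyclases, kinases and cofactor enzymes of the nitric oxide pathway. The labelled cell type is thus given as stated and was not tested against markers. In such bulk libraries, fewer cells of a type and less RNA per cell cannot be told apart.

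Nos3 was detected in each of the 6 libraries and Nos1 in 5 of them. In the control group, Nos3 had 95 counts in library 1, 50 in library 2 and 318 in library 3. In the hypergravity group it had 120, 312 and 225 counts in libraries 1, 2 and 3. Scaled to TMM-normalized CPM, the level of Nos3 was 4.67, 2.19 and 8.17 in control libraries 1, 2 and 3, and 2.70, 4.51 and 11.4 in hypergravity libraries 1, 2 and 3. Each group thus held a low, a middle and a high library, and the groups overlapped.

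Nos1 was near the limit of detection. In the control group it had 1, 0 and 6 counts in libraries 1, 2 and 3, and in the hypergravity group 6, 14 and 4. A count of 0 in control library 2 allows a level of up to 0.131 TMM-normalized CPM (3 counts, a one-sided limit), where the two-sided 95% Poisson interval drawn for the same count ends at 0.162; both cover counting error only. The TMM-normalized CPM of Nos1 was 0.0492, 0 and 0.154 in control libraries 1, 2 and 3. It was 0.135, 0.202 and 0.203 in hypergravity libraries 1, 2 and 3. Hypergravity libraries 2 and 3 lay above each control library, and hypergravity library 1 lay below control library 3.

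**Figure D1:**
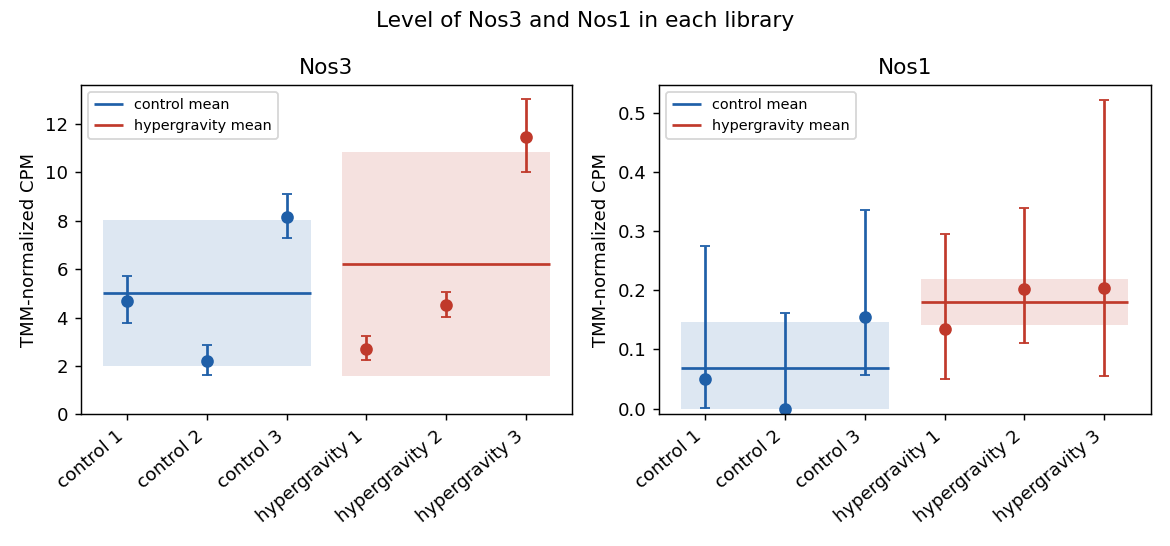
TMM-normalized CPM of Nos3 (left) and Nos1 (right) in each library. Points carry the 95% exact Poisson interval of the count, lines are group means and shaded bands are ± 1 SD (n = 3, cut at 0). Nos3 ran from 2.19 to 8.17 in control and from 2.70 to 11.4 in hypergravity libraries, and its groups overlapped, while the intervals of Nos1 overlapped between all libraries.

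In the control group, Nos3 stood in the middle of the genes that gave any read. By count it was the gene of rank 6964 in control library 1, 8510 in library 2 and 5144 in library 3, out of 23092 listed genes of which 14765, 14289 and 15005 had a count. It exceeded 52.6%, 40.2% and 65.6% of the genes with a count in these libraries. By mean TMM-normalized CPM over the control libraries, Nos3 ranked 6714. The rank was 8154, 6959 and 4118 in hypergravity libraries 1, 2 and 3.

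Nos1 stood at the lower edge of detection. Its rank was 13845 in control library 1, where 921 genes shared its count of 1, and 12592 in control library 3. In control library 2 it was among 8803 genes with no count. In the hypergravity libraries its rank was 12145, 12029 and 12468. These ranks are of counts, which grow with transcript length, and not of molecules.

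**Figure D2:**
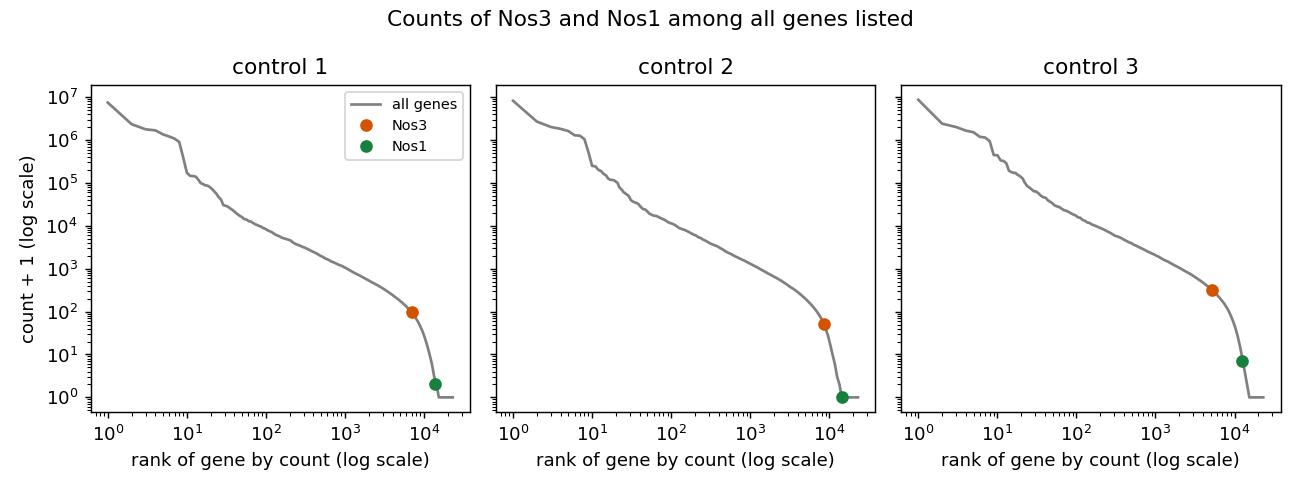
Count (+ 1, log axis) against rank (log axis) of all listed genes in each control library, with Nos3 and Nos1 marked. Nos3 lies at ranks 6964, 8510 and 5144, where the curve bends downwards, and Nos1 lies on its steep end.

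Of the reads that fell on Nos1 or Nos3, nearly all fell on Nos3. The share of Nos3 was 98.96% (95% Wilson interval 94.3 to 99.8%, of 96 counts) in control library 1, 100% (92.9 to 100%, of 50 counts) in library 2 and 98.1% (96.0 to 99.1%, of 324 counts) in library 3. In hypergravity libraries 1, 2 and 3 it was 95.2% (90.0 to 97.8%, of 126 counts), 95.7% (92.9 to 97.4%, of 326 counts) and 98.3% (95.6 to 99.3%, of 229 counts). The group means were 99.0 ± 0.928% (SD, n = 3) in control and 96.4 ± 1.62% (SD, n = 3) with hypergravity (two-sided exact permutation test, p = 0.2, or 0.3 after Benjamini-Hochberg adjustment over 3 comparisons). The smallest p-value that 3 libraries against 3 allow is 0.1. This is a share of reads and not of transcripts, since transcript lengths were not used here.

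Within each group, the level of Nos3 differed between libraries. The 95% exact Poisson interval of its level was 3.78 to 5.71 TMM-normalized CPM in control library 1, 1.63 to 2.89 in library 2 and 7.30 to 9.12 in library 3. These intervals do not overlap. They cover counting error only, and libraries of separate samples usually differ by more than that. The highest control library was 3.73 times the lowest, and the highest hypergravity library was 4.23 times the lowest.

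Ordered by level, the libraries ran from hypergravity 3 through control 3, control 1, hypergravity 2 and hypergravity 1 to control 2. Hypergravity library 3 (interval 9.99 to 13.0) stood above control library 3 by more than counting error. Control library 1 and hypergravity library 2 (4.02 to 5.04) did not differ beyond it, and neither did hypergravity library 1 (2.24 to 3.23) and control library 2. On CPM without TMM scaling, hypergravity library 2 (6.86) moved above control library 1 (3.78), and control library 3 (9.44) moved above hypergravity library 3 (9.21).

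Set beside the other genes, this spread was large. The within-group SD of Nos3 was 0.91 on the log2 scale of TMM-normalized CPM with a pseudocount of 0.5, against a median of 0.24 over the 11905 genes kept by filterByExpr, the low-count filter of edgeR, and 96.9% of these genes had a smaller SD. The level of Nos3 was not low among them, as 53.9% had a higher mean. The gene-wise dispersion of Nos3 (edgeR tagwise estimate) was 0.248, or 3.92 times the trend of 0.0634 at its abundance. This corresponds to a biological coefficient of variation of 49.8% for Nos3 and 25.2% at the trend.

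**Figure D3:**
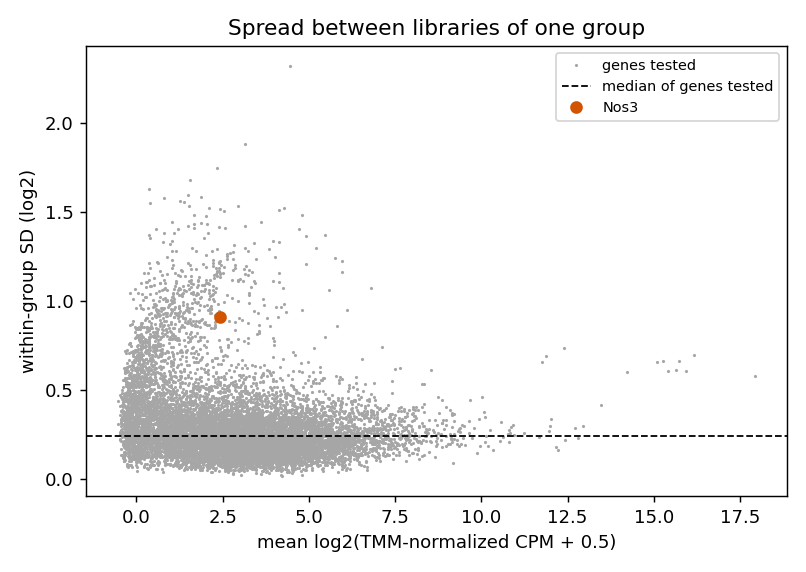
Within-group SD (log2) against mean log2(TMM-normalized CPM + 0.5) of each of the 11905 genes tested, with Nos3 marked and the median SD (0.24) as a dashed line. Nos3 lies at an SD of 0.91, above 96.9% of the genes.

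The same ups and downs were found in other genes. Pearson's correlation of log2 TMM-normalized CPM over the 6 libraries was highest between Nos3 and ENSRNOG00000049075 (r = 0.997) and ENSRNOG00000002947 (r = 0.997), of 11904 other genes. These identifiers were picked as the highest values and carry no test, and their names and functions are not given in the files. ENSRNOG00000049075 had 4.82, 1.58 and 8.45 TMM-normalized CPM in control libraries 1, 2 and 3 and 2.12, 3.84 and 13.6 in hypergravity libraries 1, 2 and 3. ENSRNOG00000002947 had 9.78, 3.86 and 19.1 in the control libraries and 4.41, 9.22 and 26.1 in the hypergravity libraries, in the same order of numbers. Both were thus highest in hypergravity library 3 and control library 3 and lowest in control library 2 and hypergravity library 1, as was Nos3.

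**Figure D4:**
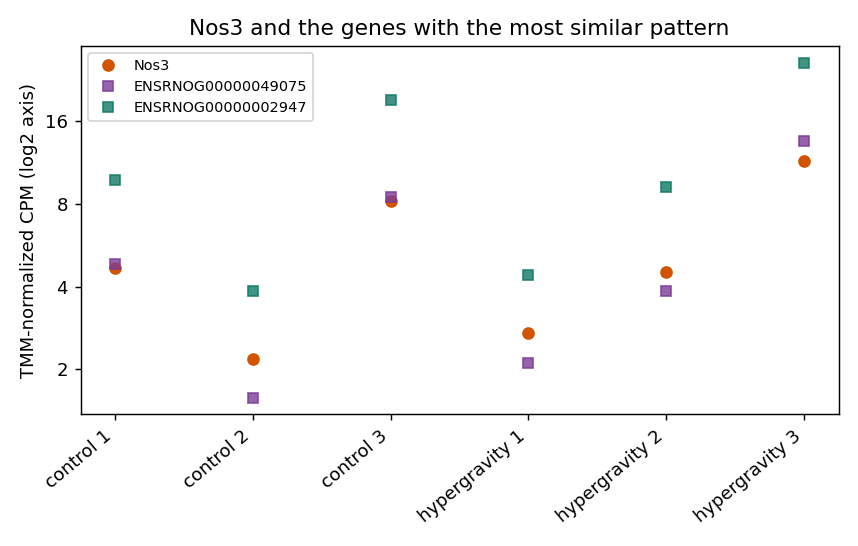
TMM-normalized CPM (log2 axis) of Nos3 and of the 2 genes with the most similar pattern, by library. For each of the 3 genes, hypergravity library 3 is highest and control library 2 is lowest.

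In all, 362 genes (3.04% of the others) had a correlation of at least 0.9 with Nos3 over the 6 libraries, where the median gene had 196 such partners and 80.6% of the genes had fewer than Nos3. A negative correlation of at least 0.9 in size was found for 46 genes, and the median over all 11904 was -0.066. The median within-group SD of these 362 genes was 0.66. With 6 points such correlations are frequent, and the genes share libraries and depth. The first principal component of the 11905 genes, with 45.7% of the variance, gave its highest scores to control library 2 (46.6) and hypergravity library 1 (38.2), the lowest in Nos3. Its lowest score went to hypergravity library 3 (-40.6), the highest in Nos3, followed by control library 1 (-34.7) and control library 3 (-17.7), while hypergravity library 2 scored 8.25. The part of other cell types or of RNA handling in this pattern was not tested.

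The comparison of hypergravity with control asks whether the synthase transcripts changed with the load. Neither Nos1 nor Nos3 passed the threshold with edgeR (unadjusted p = 0.224 and 0.662), and neither was called with limma-voom. With DESeq2, Nos3 was not called, and Nos1 was given no adjusted p-value and so could not be called. The level of Nos3 was 5.01 ± 3.00 TMM-normalized CPM (SD, n = 3) in control libraries against 6.22 ± 4.61 (SD, n = 3) with hypergravity. The medians went the other way, 4.67 in control and 4.51 with hypergravity, and 1 of the 3 hypergravity libraries lay above each control library. The log2 fold change of Nos3 was 0.27 (SE 0.58, adjusted p = 0.871, edgeR quasi-likelihood), with a 95% interval from -1.08 to 1.61, which spans a fold from 0.474 to 3.05. The interval thus reaches from a fall to less than 0.5 of the control level to a rise beyond 3 times it. The two-sided exact permutation test of the levels gave p = 0.7 (0.7 after adjustment over the same 3 comparisons).

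The size of the Nos3 difference was ordinary. Of the 11905 genes tested, 52.7% had a smaller log2 fold change in size, 4 (0.0336%) were called at an adjusted p-value under 0.05, all lower after hypergravity (DESeq2 called 326, 175 higher and 151 lower), and 2593 (21.8%) did not overlap between the groups in either direction. Before adjustment, 876 higher and 740 lower genes had a p-value under 0.05 (843 and 115 without scaling beyond library size), and 9041 genes had a smaller p-value than Nos3. The direction of Nos3 rested on single libraries. Without hypergravity library 3 the log2 fold change was -0.48, without control library 2 it was -0.08, and without control library 3 it was 0.84, with adjusted p-values from edgeR of 0.638, 0.971 and 0.666. It was 0.65 and 0.48 without hypergravity libraries 1 and 2 and 0.21 without control library 1, and limma-voom on all libraries gave -0.014 (adjusted p = 0.993).

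Nos1 did not pass the filter on low counts and was tested in the fit without a filter over 16981 genes, of which 15 (0.0883%) were called, 4 higher and 11 lower. Its level was 0.0678 ± 0.0787 TMM-normalized CPM (SD, n = 3) in control libraries against 0.180 ± 0.0391 (SD, n = 3) with hypergravity. The log2 fold change was 1.20 (SE 0.93, 95% interval -0.84 to 3.23, adjusted p = 0.684, edgeR quasi-likelihood), higher than the median control library in 3 of 3 hypergravity libraries. The fitted value depends on the prior count at such low counts. Summed over libraries, Nos1 had 24 counts after hypergravity and 7 in control, a ratio of 2.11 per normalized total with an exact 95% interval from 0.883 to 5.80, which covers counting error only and compares these libraries and not the conditions. The same ratio for Nos3, from 657 and 463 counts, was 0.874 (0.775 to 0.986), below 1 where its fitted log2 fold change was above 0. The exact permutation test of the levels gave p = 0.2 (two-sided, 0.3 after adjustment). No difference of Nos1 was thus detected, and single control libraries moved the value. The log2 fold change was 2.78 (adjusted p = 0.559, edgeR) without control library 3 and 0.69 (adjusted p = 0.843, edgeR) without control library 2.

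**Figure D5:**
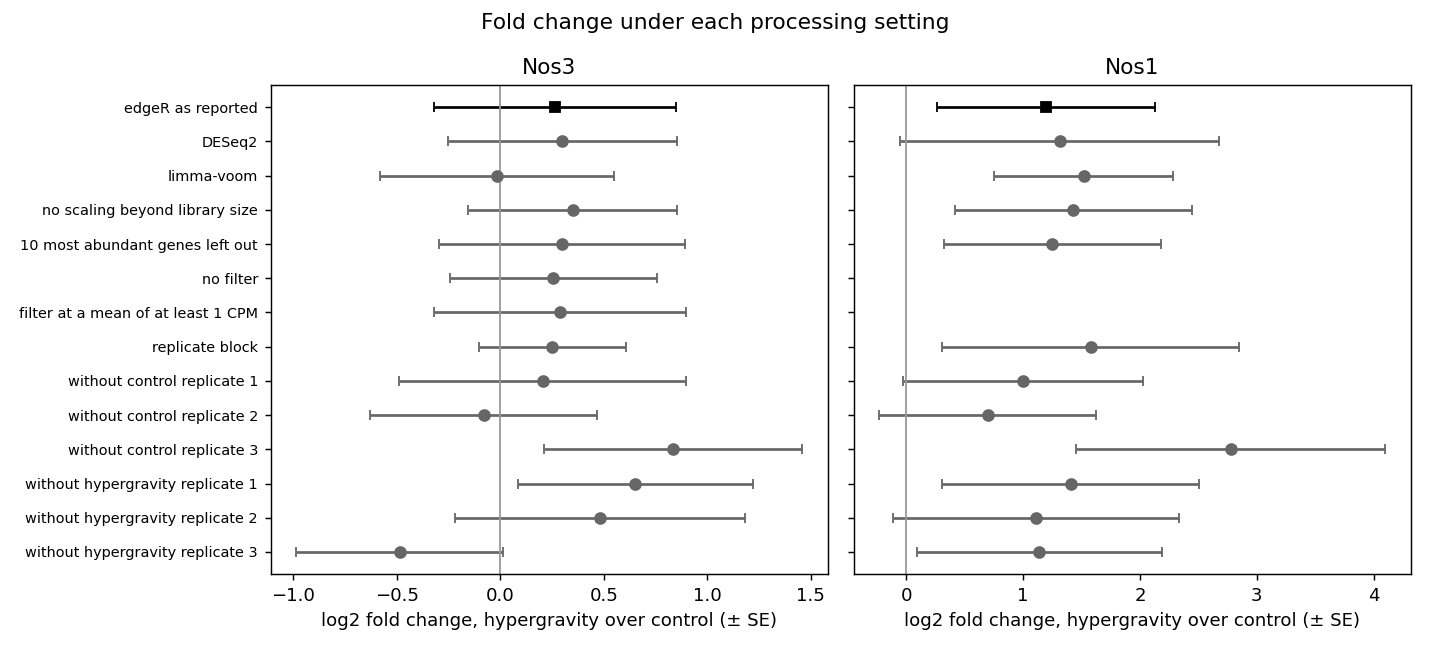
Log2 fold change of hypergravity over control (x axis, bars ± SE) for Nos3 (left) and Nos1 (right) under each setting of the processing, with the reported edgeR fit on top. Nos3 fits use filterByExpr unless the setting changes the filter, and all Nos1 fits use no filter. Nos1 therefore has no point in the rows that set the filter. Nos3 runs from -0.48 to 0.84 on both sides of 0 and Nos1 from 0.69 to 2.78. Neither was called in any setting shown, but DESeq2 gave Nos1 no adjusted p-value.

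Both genes overlap other loci. In the RefSeq annotation of the GRCr8 assembly, which is not the build of the files and was used for names of neighbours only, Nos3 on chromosome 4 shares 10 bases with Atg9b, an autophagy gene. Nos1 on chromosome 12 spans 2 lncRNA genes. Alignments that overlapped more than 1 gene, and were assigned to none, made up 2.83 to 4.01% of the listed alignments per library. The labels name a stranded library kit, and whether the counting used strand is not given in the sources used here, so reads of genes that overlap on opposite strands may be part of this loss.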

How the data were processed

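The deposited values are raw counts of reads per gene, which the authors made, per the labels, with FastQC, Trimmomatic, HISAT2 and HTSeq on the rat genome mRatBN7.2; tool versions, annotation release and strand setting are not given in the sources used here. Libraries were grouped by their titles. The 5 summary categories of HTSeq (outside exons 2.85 to 4.40% of alignments, several places 1.69 to 2.58%) were left out of library sizes and tests. All pairs of libraries differed beyond sampling noise, so none is a copy.

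Counts were analysed with edgeR 4.0.16 (R 4.3.3): filterByExpr, TMM, quasi-likelihood test and Benjamini-Hochberg adjustment over all genes tested, with a threshold of 0.05. SE was taken as |log2 fold change|/√F. Alternatives used DESeq2 1.42.0, limma-voom (limma 3.58.1), other scaling and filters, the replicate number as a block, and fits without single libraries. Permutation tests and intervals used scipy 1.17.1. The procedure was tested on simulated counts, at changes larger than the reported fits of Nos1 and Nos3 gave. The changed genes lay above the level of Nos1, and the dispersions lay below that of Nos3. That test therefore does not show what could be detected for either member. Intervals are at 95% and floors are 3 counts. The reference gene table matched 0 of the 23092 identifiers, so the lists of pathway and marker genes, coding lengths and sequences were not used here. Genes named are the members and the 2 identifiers most correlated with Nos3, with Atg9b, chosen outside this rule as a neighbour of Nos3. Members and lists were chosen with earlier results of these data known.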

Additional observations from a re-analysis of the deposited data

How the results depend on the processing

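Neither member was called in any setting run. Nos3 kept its direction in 10 of 13 alternatives. It turned with limma-voom (-0.014) and without control library 2 or hypergravity library 3; over single libraries left out it ran from -0.48 to 0.84 (adjusted p from 0.638 to 0.993 over all settings). Nos1 kept its direction in 11 of 11 (0.69 to 2.78, adjusted p from 0.509 to 0.961), and DESeq2 gave it no adjusted p. Without scaling beyond library size, the median over all genes moved from -0.02 to 0.32, and Nos3 lay 0.036 above that median, against 0.29 in the TMM fit.

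The count of 4 genes called over all genes was 326 with DESeq2 (175 higher, 151 lower), 15 without a filter and 1 without scaling. With edgeR it was 0 with the 10 most abundant genes left out (1027 higher and 640 lower at an unadjusted p under 0.05) and 0 with a replicate block (582 and 397), and 0 to 1 with single libraries left out (568 to 987 higher and 376 to 1054 lower). The cause was not tested, except that leaving out libraries leaves fewer samples. Whether the replicate numbers pair the libraries cannot be told from the values at hand. Deviations of same-numbered libraries correlated at -0.428, -0.143 and 0.114 across genes, and libraries of different number were not compared. The block gave Nos3 0.25 (SE 0.36, adjusted p = 0.88, edgeR), where the SE without it was 0.58. Under other scalings, mean control levels moved by less than their SD. Leaving out 1 of 3 libraries cannot move a mean by its SD, so that yardstick says nothing about left-out libraries. Without control library 3 the mean was 0.0246 for Nos1 and 3.43 for Nos3. Without control library 2 it was 0.102 and 6.42, against 0.0678 and 5.01 with all 3. The share of Nos3 kept its direction. The alternatives on coding length and on pathway genes were not run, for want of matched lengths and names.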
